A study of Homo sapiens with 6 samples.

Results

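Transcriptional targets of p53 that act in cell death and DNA repair were followed in HCT-116 colorectal cancer cells, 10 genes in all: BAX, BBC3, FAS, TNFRSF10B, AEN, XPC, DDB2, POLH, RRM2B and GDF15. They were chosen by name, with earlier results of this same comparison known, as the rows of the gene expression table whose name field holds 1 of these symbols. All 10 were found among 27918 rows, 9 in a row of their own and GDF15 in a row that joins it with its neighbour PGPEP1, and all 10 were among the 16028 rows that passed a filter on low values (mean FPKM of at least 0.1). FPKM counts fragments per kilobase of transcript at a fixed sequencing depth, so levels may be compared between genes. Because the choice was made with this contrast in view, the fold changes and adjusted p-values of the 10 genes are given as a description of these libraries.

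The HCT-116 line was established from a human colorectal carcinoma. The cells were transfected with 10 nM of a GapmeR, a chimeric antisense oligonucleotide that directs RNase H to a target RNA, using a lipid reagent: the GapC9 group received a GapmeR against the long noncoding RNA CASC9, and the GapNC group received a control GapmeR. Each group had 3 poly(A) paired-end RNA-seq libraries of the same line, and both groups went through the transfection, so there was no untransfected group. The sources used here give both 24 h and 48 h as the time after transfection, and beyond a general statement that experiments were repeated they do not say whether the 3 libraries of a group came from separate cultures, so a p-value measures only the spread between these libraries.

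p53 is a transcription factor that is kept at low level by the ubiquitin ligase MDM2 and is stabilised after DNA damage and other stress. It then binds response elements made of pairs of a conserved decamer and raises the transcription of genes for arrest, repair and death. The 10 genes cover the later arms of that programme. BAX and BBC3 (PUMA) act at the mitochondrion, FAS and TNFRSF10B (DR5) are death receptors at the cell surface, AEN is a nuclease of apoptotic cells, XPC and DDB2 recognise DNA lesions for nucleotide excision repair, POLH is a polymerase that copies past ultraviolet lesions, RRM2B is a ribonucleotide reductase subunit that supplies nucleotides for repair, and GDF15 is a secreted cytokine of the TGF-β superfamily.

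CASC9 itself was close to the limit of detection. Its FPKM was 0, 0.0108 and 0 in GapNC replicates 1 to 3 and 0.0528, 0.107 and 0 in GapC9 replicates 1 to 3, below the filter and not lower in the GapC9 libraries. The targeted gene therefore does not check the labels, and every direction below rests on the libraries as labelled. The commonest step between low FPKM values corresponds to a depth of 22.8 M to 24.4 M (mega) fragments, if a step is 1 fragment. The epithelial markers EPCAM, KRT8, KRT18 and KRT19 were abundant (EPCAM FPKM of 62.3 to 88.4) while CDX1, VIL1 and LGALS4 were near 0, and the 9 listed epithelial markers summed to 1006 to 1401 in GapNC and 995 to 1261 in GapC9. Of the 7 markers of other cell types, VIM and COL1A1 were at 3.30 or below, COL1A2, PTPRC, CD3E and PECAM1 were near or at 0, DCN had no row, and their sum was 3.36 to 4.56 in GapNC and 3.49 to 4.10 in GapC9. Each gene's deviation from its mean over all 6 libraries was compared with the GC content of its transcript by Spearman's rho. Since that mean spans both groups, rho also takes in any group difference that goes with GC content, and genes are not independent replicates. Among the treated libraries rho was 0.0215 for replicate 1, -0.339 for replicate 2 and -0.384 for replicate 3. The controls had a rho of 0.0130 (replicate 2), -0.101 (replicate 3) and 0.618 (replicate 1), so that GapNC replicate 1 stood apart by base composition. Values of the 10 genes are therefore given with and without GapNC replicate 1 where it moves them.

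The decamer to which p53 binds was looked for from 250 bases before to 50 bases after annotated start sites (RefSeq, GRCh38.p14). It was present in 2329 of 35116 such windows over the genome (6.63%), and in 3 of the 11 windows that RefSeq lists for 8 of the 10 genes. The consensus is its own reverse complement, so both strands were searched at once. Stretches of 30 bases around the matches in DDB2, AEN and FAS are shown in 5′ to 3′ orientation of the gene, with each decamer in capitals, since these are the genes whose start regions hold the letters.
DDB2, chr11:47214975-47215004, plus strand: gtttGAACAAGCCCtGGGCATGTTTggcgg
AEN, chr15:88621296-88621325, plus strand: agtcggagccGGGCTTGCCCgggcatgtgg
FAS, chr10:88991299-88991328, plus strand: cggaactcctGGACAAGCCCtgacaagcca
Only the DDB2 stretch held 2 decamers within 13 bases of each other, 1 base apart, at positions 6 to 15 and 17 to 26 after the start site; 10 windows of 35116 (0.0285%) held such a pair. It lies in annotated exon and UTR sequence of 2 DDB2 transcripts. The AEN decamer lay at positions -34 to -25 from the RefSeq start site, within an exon of another AEN transcript. The FAS decamer lay at positions -122 to -113 from 1 of 3 FAS start sites. It falls within annotated exon sequence of other FAS transcripts, and the ACTA2 gene overlaps there on the other strand. The core CATG was in 5 of the 11 windows and in 54.9% of all windows. In DDB2 it falls within the second decamer, in AEN it lies beside the decamer, and in FAS it lies in another window than the decamer. A match describes these letters only, and response elements of other genes may lie outside such windows.

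Across the 10 genes, levels were low to moderate, and most means were higher in GapC9 by less than the test over all rows could separate from the replicate spread. The mean FPKM over all 6 libraries ran from 16.6 for RRM2B, 14.2 for the GDF15 row, 11.97 for TNFRSF10B and 11.3 for XPC, through 8.76 for DDB2, 7.58 for POLH, 6.90 for AEN and 6.54 for BAX, down to 3.53 for BBC3 and 2.95 for FAS. The ratio of group means, GapC9 over GapNC, lay between 0.821 (BAX) and 1.73 (GDF15 row). The fitted log2 fold change was above 0 for 8 genes and below 0 for BAX and RRM2B, with a median of 0.40, beside a median of -0.076 and a share above 0 of 43.6% over all rows tested. The median of the 10 fell to 0.23 without GapNC replicate 3 and was 0.56 without GapNC replicate 1. With limma on log2(FPKM + 0.1), adjusted over all rows, 1 of the 10 passed an adjusted p of 0.05 in the upward direction (1.89% of all rows did) and 0 passed downward (5.1% of all rows did), and 3 had an unadjusted p under 0.05 in either direction (25.9% of all rows did; 2 to 7 of the 10 over the alternatives). The 3 GapC9 libraries lay above all 3 GapNC libraries for 4 genes (12.6% of all rows), TNFRSF10B, XPC, DDB2 and the GDF15 row, and below them for 0 genes (21.6% of all rows). None had a ratio of means of at least 2 or at most 0.5 with an unadjusted p under 0.05 (6.42% of all rows). Since the 10 genes were selected on this contrast, nothing is read from these counts. Over all rows 303 passed upward and 817 downward, and scaling each library by its median changed that split to 362 and 511. In bulk RNA, fewer cells that express a gene and less RNA per cell cannot be told apart.

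**Figure D1:**
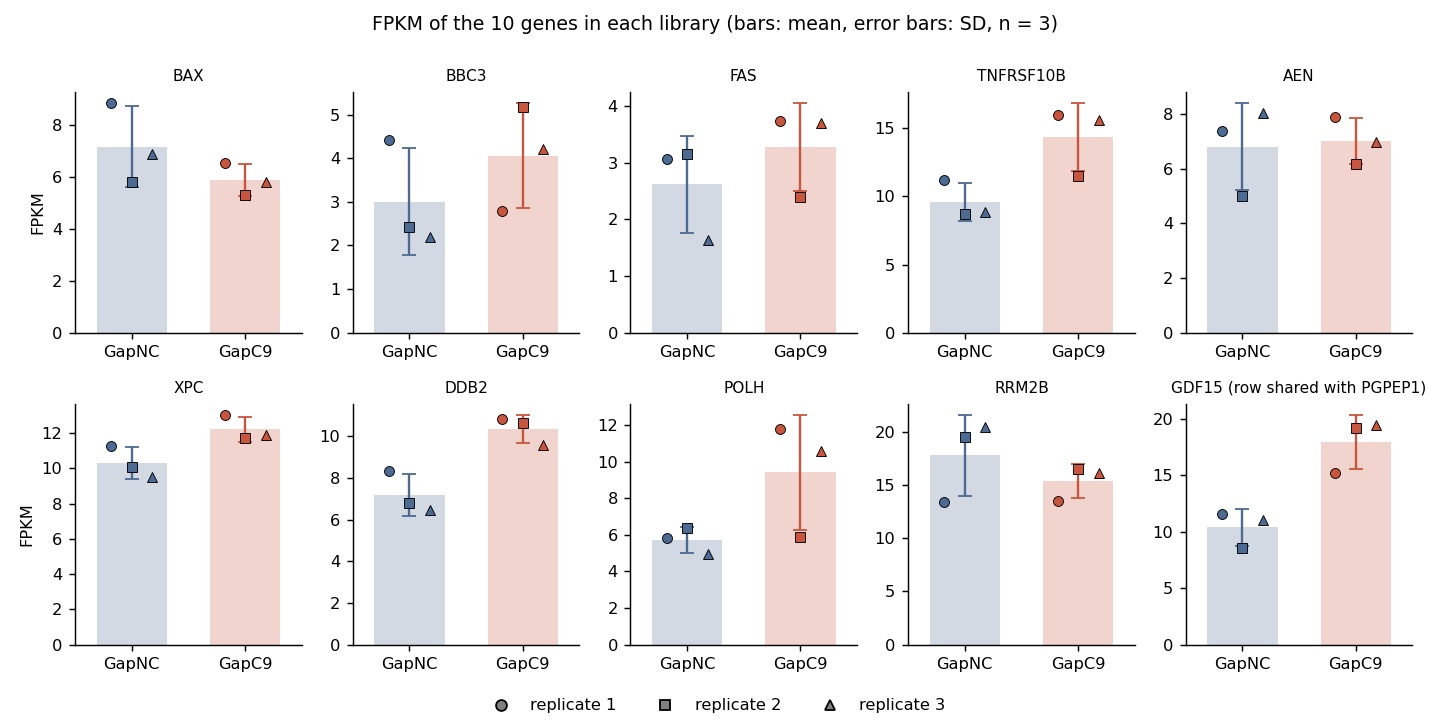
FPKM (y axis, linear, from 0) of each of the 10 genes in the GapNC and GapC9 libraries; bars are group means, error bars the SD of 3 libraries, and circles, squares and triangles replicates 1, 2 and 3. The GapC9 points lie above every GapNC point for TNFRSF10B, XPC, DDB2 and the row GDF15 shares with PGPEP1, and the groups overlap for the other 6 genes.

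At the mitochondrion, neither BAX nor BBC3 separated between the groups. BAX, the effector that permeabilises the outer membrane (MSTRG.9961; chr19:48954815-48961798, plus strand, GRCh38), had an FPKM of 8.86, 5.80 and 6.88 in GapNC replicates 1 to 3 and 6.55, 5.31 and 5.82 in GapC9 replicates 1 to 3. The highest value was that of GapNC replicate 1, and the groups overlapped. The means were 7.18 ± 1.55 and 5.89 ± 0.624 (SD, n = 3 each), a log2 fold change of -0.26 with a standard error of 0.18 and a 95% interval of -0.71 to 0.18 (limma adjusted p = 0.411). Without GapNC replicate 1 the difference was -0.10, without GapNC replicate 2 it was -0.40, and after a correction for GC content it was -0.017.

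BBC3, the BH3-only protein that neutralises BCL2 relatives and lets BAX act (MSTRG.9909; chr19:47220822-47232766, minus strand), had an FPKM of 4.41, 2.41 and 2.18 in GapNC and 2.79, 5.17 and 4.22 in GapC9. GapNC replicate 1 was the highest control and GapC9 replicate 1 the lowest treated library, and the groups overlapped through them. The means were 3.002 ± 1.23 and 4.06 ± 1.202, with a log2 fold change of 0.45, a standard error of 0.34 and an interval of -0.38 to 1.28 (limma adjusted p = 0.455). Without GapNC replicate 1 the 3 GapC9 libraries lay above both remaining controls, with a log2 difference of 0.75 ± 0.28 (SE) and an adjusted p of 0.191, whereas the difference was 0.26 without GapNC replicate 3 and 0.26 without GapC9 replicate 2. BBC3 also had the widest relative spread in GapNC, with an SD of 40.8% of the mean, and its longest transcript had the highest GC content of the 10, at 69.7%. Its lowest library held an estimated 97.8 fragments, the fewest of any of the 10 genes.

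Of the death receptors, TNFRSF10B was higher in each GapC9 library than in any GapNC library, and FAS overlapped. FAS, the receptor for FAS ligand (chr10:88990582-89015785, plus strand), had an FPKM of 3.06, 3.15 and 1.63 in GapNC and 3.74, 2.38 and 3.70 in GapC9. GapC9 replicate 2 lay below GapNC replicates 1 and 2, and GapNC replicate 3 was the lowest library. The means of 2.61 ± 0.854 and 3.28 ± 0.772 gave a log2 fold change of 0.34 with a standard error of 0.31 and an interval of -0.42 to 1.10 (limma adjusted p = 0.528). The difference was 0.48 without GapNC replicate 1, 0.046 without GapNC replicate 3 and 0.55 without GapC9 replicate 2. After the GC correction it was 0.27. The FAS gene overlaps the opposite-strand ACTA2 gene at its start, and strand use in the counting is not given in the sources used here.

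TNFRSF10B, the receptor DR5 that binds the ligand TRAIL and recruits FADD and caspase-8 (chr8:23020133-23069179, minus strand), had an FPKM of 11.2, 8.74 and 8.88 in GapNC and 15.96, 11.5 and 15.6 in GapC9. The lowest GapC9 library, replicate 2, lay just above the highest GapNC library, replicate 1. The means were 9.60 ± 1.38 and 14.3 ± 2.49, a ratio of 1.49 and a log2 fold change of 0.57 with a standard error of 0.18 and an interval of 0.14 to 0.999. The limma adjusted p was 0.112, so the difference did not pass over all rows. The log2 difference was 0.68 without GapNC replicate 1 (adjusted p = 0.0975), and 0.67 after the GC correction, where it passed (adjusted p = 0.0420). It fell to 0.48 without GapC9 replicate 1 (adjusted p = 0.242). Over 17 alternatives it ranged from 0.48 to 0.72 and passed in 1. RHOBTB2 and the antisense gene AC107959.2 overlap TNFRSF10B on the other strand.

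AEN, an exonuclease that p53 induces and that digests DNA during apoptosis (chr15:88621296-88632282, plus strand), did not separate between the groups. Its FPKM was 7.36, 4.998 and 8.04 in GapNC and 7.87, 6.16 and 6.99 in GapC9, so that the lowest and the highest libraries were both controls. The means of 6.80 ± 1.60 and 7.01 ± 0.856 gave a log2 fold change of 0.065 with a standard error of 0.21 and an interval of -0.44 to 0.57 (limma adjusted p = 0.877). The difference was 0.135 without GapNC replicate 1, and the sign turned to -0.14 without GapNC replicate 2 and to -0.022 without GapC9 replicate 1.

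Both lesion recognition genes had higher values in every GapC9 library than in any GapNC library, and neither passed the adjusted threshold on the values as deposited. XPC, which opens global genome nucleotide excision repair by binding distorted DNA (chr3:14145147-14178783, minus strand), had an FPKM of 11.3, 10.1 and 9.52 in GapNC and 13.03, 11.7 and 11.9 in GapC9. The gap between the groups was narrow, from GapNC replicate 1 to GapC9 replicate 2. The means of 10.3 ± 0.896 and 12.2 ± 0.708 differed by 0.25 on the log2 scale with a standard error of 0.11 and an interval of -0.019 to 0.51 (limma adjusted p = 0.217). XPC had the smallest relative spread of the 10 genes, with an SD of 8.70% of the mean in GapNC and 5.80% in GapC9. Without GapNC replicate 1 the log2 difference was 0.31 (adjusted p = 0.121), and after the GC correction it was 0.39 and passed (adjusted p = 0.0162). It fell to 0.19 without GapNC replicate 3 (adjusted p = 0.373). Over 17 alternatives it ranged from 0.19 to 0.39 and passed in 1. The LSM3 gene overlaps XPC at its start on the other strand, and AC090004.1 and AC093495.1 also overlap XPC on that strand.

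DDB2, the subunit of the damaged DNA binding complex that finds ultraviolet lesions in chromatin and hands them to XPC (chr11:47214465-47239240, plus strand), had an FPKM of 8.32, 6.78 and 6.44 in GapNC and 10.8, 10.6 and 9.59 in GapC9. GapNC replicate 1 was the highest control and still lay below all GapC9 libraries. The means were 7.18 ± 0.9999 and 10.4 ± 0.664, a ratio of 1.44, with a log2 fold change of 0.53 with a standard error of 0.13 and an interval of 0.21 to 0.85 (limma adjusted p = 0.0699). The start region of this gene is the one with the paired decamers printed above. An antisense gene, AC018410.2, overlaps DDB2 on the other strand. DDB2 passed without GapNC replicate 1 (log2 difference 0.64, adjusted p = 0.0400), with each library scaled by its median (0.63, adjusted p = 0.0437), with quantile normalization (0.61, adjusted p = 0.0485) and after the GC correction (0.66, adjusted p = 0.00993), and over 17 alternatives its log2 difference ranged from 0.46 to 0.66.

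POLH and RRM2B, which act while lesions are bypassed or filled in, went in opposite directions by mean and overlapped between groups. POLH, the translesion polymerase eta (chr6:43576150-43615660, plus strand), had an FPKM of 5.83, 6.37 and 4.98 in GapNC and 11.8, 5.88 and 10.6 in GapC9. GapC9 replicates 1 and 3 lay far above all controls, whereas GapC9 replicate 2 lay among them. The means of 5.73 ± 0.701 and 9.43 ± 3.14 gave a ratio of 1.65 and a log2 fold change of 0.66 with a standard error of 0.28 and an interval of -0.028 to 1.34 (limma adjusted p = 0.205). Without GapC9 replicate 2 the log2 difference was 0.96 and the adjusted p 0.0971, and without GapC9 replicate 1 they were 0.46 and 0.384. These were the highest and the lowest differences over 17 alternatives, of which 0 passed. POLH overlaps POLH-AS1 and GTPBP2 on the other strand.

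RRM2B, the p53-inducible small subunit of ribonucleotide reductase (chr8:102204502-102239118, minus strand), had an FPKM of 13.5, 19.5 and 20.5 in GapNC and 13.6, 16.5 and 16.1 in GapC9. GapNC replicate 1 was the lowest library and the other GapNC libraries were the highest. The means of 17.8 ± 3.80 and 15.4 ± 1.62 differed by -0.19 on the log2 scale with a standard error of 0.19 and an interval of -0.65 to 0.27 (limma adjusted p = 0.568). Without GapNC replicate 1 all GapC9 libraries lay below both controls, with a log2 difference of -0.38 and an adjusted p of 0.138, and after the GC correction the groups again did not overlap (-0.32, adjusted p = 0.0639). The difference was -0.078 without GapNC replicate 3, -0.11 without GapNC replicate 2 and -0.10 without GapC9 replicate 1. RRM2B had the lowest GC content of the 10, at 36.4%.

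The row that holds GDF15 rose in GapC9, the only 1 of the 10 to pass the adjusted threshold. GDF15 (chr19:18374731-18389176, plus strand) lies beside PGPEP1, a pyroglutamyl peptidase gene (chr19:18340587-18369950, plus strand), and the table reports both as 1 row (MSTRG.9581), so their values cannot be separated. Of the 14 annotated transcripts listed for the row, 5 belong to GDF15, and the longest, of 7092 bases, is a PGPEP1 transcript. The row had an FPKM of 11.6, 8.55 and 11.05 in GapNC and 15.2, 19.2 and 19.5 in GapC9. Every GapC9 library lay above every GapNC library, with GapC9 replicate 1 the lowest of its group. The log2 difference was 0.87 without GapNC replicate 1. With all libraries the means were 10.4 ± 1.63 and 17.98 ± 2.38, a ratio of 1.73 and a log2 fold change of 0.79 with a standard error of 0.17 and an interval of 0.38 to 1.19 (limma adjusted p = 0.0477). The call was lost when any of the 6 libraries was left out (adjusted p from 0.0635 to 0.163, log2 difference from 0.65 to 0.90). It was also lost without the filter on low values (adjusted p = 0.0796), without the mean-variance trend (0.0641) and with the replicate number as a block (0.0928). It was kept in 8 of 17 alternatives, among them the GC correction (0.94, adjusted p = 0.0184), which used the GC content of a PGPEP1 transcript.

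**Figure D2:**
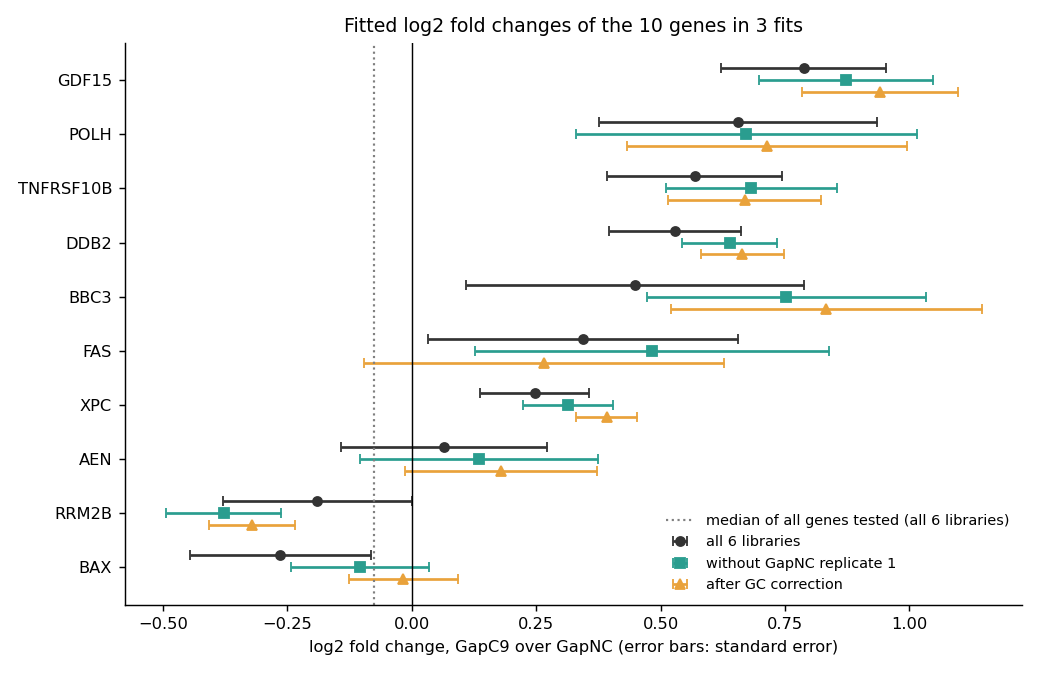
Fitted log2 fold change, GapC9 over GapNC (x axis), of the 10 genes (y axis, ordered by value) with all 6 libraries, without GapNC replicate 1 and after a GC correction; error bars are standard errors and the dotted line is the median of all rows tested. DDB2 lies at 0.53, 0.64 and 0.66, BBC3 at 0.45, 0.75 and 0.83, and RRM2B at -0.19, -0.38 and -0.32 in the 3 fits.

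Among the libraries, GapNC replicate 1 deviated in the same direction for most of the 10 genes. It was above its group mean for 9 of the 10 genes, RRM2B being the exception, while GapNC replicates 2 and 3 were each above it for 3 genes, GapC9 replicates 1 and 3 for 7 and GapC9 replicate 2 for 4. On the log2 scale, GapNC replicate 1 exceeded the mean of the other GapNC libraries by 0.91 for BBC3, 0.48 for BAX, 0.42 for FAS, 0.34 for TNFRSF10B, 0.33 for DDB2, 0.25 for the GDF15 row, 0.21 for AEN, 0.20 for XPC and 0.048 for POLH, and lay below it by -0.57 for RRM2B. Among the GapNC libraries, the high-GC genes BBC3 and BAX were highest in replicate 1 and the low-GC gene RRM2B was lowest. FAS, with a GC content of 39.1%, was higher there than the mean of the other GapNC libraries, although the median gene of its GC range had a difference of -0.34. Over all rows of at least 1 FPKM, the median difference went from -0.39 at a GC content of 35% or less to 0.56 above 65%. For the 4 genes with non-overlapping groups the difference between groups was larger without this library. The part that base composition plays in the other differences was not tested.

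**Figure D3:**
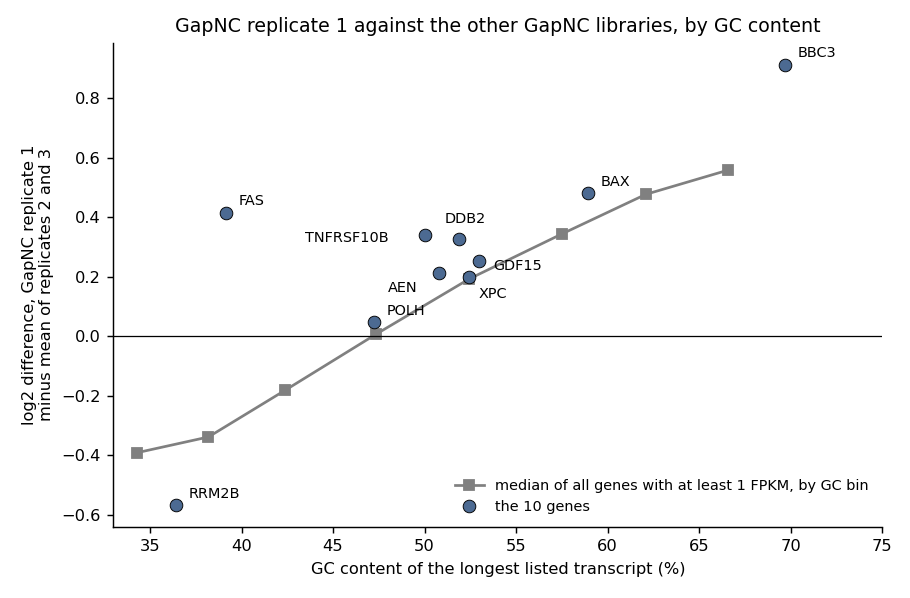
Log2 difference between GapNC replicate 1 and the mean of GapNC replicates 2 and 3 (y axis) against the GC content in percent of the longest listed transcript (x axis), for the 10 genes (circles) and as medians over all genes of at least 1 FPKM in bins of GC content (squares and line). BBC3 and BAX lie at the high end and RRM2B at the low end, and FAS lies at 0.42 where the bin median is -0.34; the GC content of the GDF15 row is that of a PGPEP1 transcript.

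In the wider p53 pathway, 6 of 31 tested rows of a list of other p53 targets passed upward. Of all rows, 1.89% passed upward and 5.1% downward. MDM2, the ligase that degrades p53 and is also its target, had means of 12.4 ± 2.62 and 18.1 ± 3.53, non-overlapping groups and a log2 fold change of 0.55 (limma adjusted p = 0.177). PPM1D, the phosphatase WIP1 that switches off p53 signalling, was the only 1 of 10 tested genes in the list of p53 and its regulators to pass, with means of 7.30 ± 0.020 and 14.3 ± 1.44 and a log2 fold change of 0.96 (adjusted p = 0.0166). The list's median was 0.043 and turned to -0.053 without GapNC replicate 1.

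Among 31 tested rows of other p53 targets, which list none of the 10 genes, 6 passed upward and 0 downward (1.89% and 5.1% of all rows did). Their median log2 fold change was 0.47. The groups did not overlap for 18 rows upward and 5 downward (12.6% and 21.6% of all rows). CDKN1A, the cyclin-dependent kinase inhibitor p21 and the best known arrest target, had an FPKM of 96.2, 83.1 and 86.0 in GapNC and 149, 142 and 152 in GapC9, a log2 fold change of 0.74 (limma adjusted p = 0.0175). The other genes that passed were TP53INP1, a cofactor of p53 signalling and autophagy (1.13, adjusted p = 0.0260), ANKRA2 (0.90, adjusted p = 0.0190), SESN1, a stress-induced inhibitor of mTORC1 (0.79, adjusted p = 0.0314), the kinase gene PLK2 (0.57, adjusted p = 0.0261) and PPM1D, which stands in both lists. Leaving out a single library left 0 to 5 of these targets past the threshold, and the GC correction gave 11 upward and 1 downward. That correction also raised the number of calls over all rows in both directions. The widest difference in that list, 2.81 for 1 of 2 rows of TIGAR, belonged to a row listed at 0 in GapNC replicate 3 and did not pass (adjusted p = 0.229); it is named because of its value.

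Few partners of the death receptors and of BAX and BBC3 passed. In the death receptor pathway list 1 of 13 tested genes passed upward and 0 downward (1.89% and 5.1% of all rows did). The median log2 fold change was 0.039, between -0.13 and 0.26 over the alternatives. The gene that passed was TNFRSF10D, a decoy receptor for TRAIL that lacks a working death domain, with an FPKM of 19.3, 19.9 and 19.0 in GapNC and 34.7, 32.7 and 32.6 in GapC9 (log2 fold change 0.78, limma adjusted p = 0.0159). TNFRSF10A, the sister receptor DR4, was in a row joined with a noncoding gene and had means of 14.1 ± 5.65 and 25.4 ± 1.44 (0.91, adjusted p = 0.106). CASP8, the initiator caspase, had a difference of 0.40 (adjusted p = 0.0964). The adaptor FADD varied from 2.94 to 15.3 FPKM in GapNC and from 2.20 to 10.7 in GapC9 (-0.97 with a standard error of 0.82). The ligand genes were not measurable in these cells, since FASLG had no row and TNFSF10, which encodes TRAIL, was below the filter. In the BCL2 family list 0 of 14 tested genes passed upward and 1 downward (1.89% and 5.1% of all rows did), with a median of -0.22. That median was -0.066 without GapNC replicate 1, -0.12 with median scaling and 0.024 with the GC correction, and 1 gene passed upward with median scaling, quantile normalization and the GC correction. The gene that passed downward, BIK, a BH3-only protein, had means of 9.06 ± 2.39 and 3.89 ± 0.320 (-1.17, adjusted p = 0.0366). BAK1, the effector related to BAX, varied from 8.14 to 22.7 FPKM across libraries (-0.089, adjusted p = 0.931).

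Of the wider repair lists, few genes passed. Among 30 tested genes of nucleotide excision repair 0 passed upward and 2 downward (1.89% and 5.1% of all rows did), with a median of -0.069. Over the alternatives 0 to 4 passed upward and 0 to 2 downward. The 4 were with the GC correction, which also raised the number of calls over all rows in both directions. The median lay between -0.086 and 0.033, turning positive with median scaling, quantile normalization and the GC correction. The 2 that passed downward with all libraries were CUL4A, the cullin that forms a ubiquitin ligase with the DDB1 and DDB2 complex, with means of 9.74 ± 0.213 and 5.93 ± 0.079 (-0.71, limma adjusted p = 0.0186), and ERCC2, a helicase of the TFIIH complex, with means of 10.2 ± 2.35 and 4.997 ± 0.022 (-0.99, adjusted p = 0.0317). DDB1, the partner of DDB2, had a difference of -0.092 and RAD23B, the partner of XPC, of -0.062 (adjusted p = 0.611 and 0.737). In translesion synthesis 0 of 12 genes passed upward and 1 downward, with a median of 0.085 that turned to -0.048 without GapNC replicate 1 and to -0.019 with the GC correction: REV3L, the catalytic subunit of polymerase zeta, had means of 3.57 ± 0.508 and 1.39 ± 0.249 (-1.30, adjusted p = 0.0216). In deoxynucleotide supply 0 of 8 rows passed in either direction, with a median of 0.10; RRM1, the large subunit that pairs with RRM2B, had a difference of 0.15 and the row that holds the S-phase subunit RRM2 of 0.054 (adjusted p = 0.526 and 0.810).

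GDF15 and the TRAIL receptor TNFRSF10B are also known targets of the integrated stress response, in which the factor ATF4 is translated when translation at large is reduced. Of 12 listed genes of that response 3 passed upward and 0 downward (1.89% and 5.1% of all rows did), with a median log2 fold change of 0.40. They were ATF3, a stress-induced transcription factor, with means of 6.03 ± 0.541 and 12.3 ± 0.663 (1.02, limma adjusted p = 0.0159), PPP1R15A, the phosphatase subunit GADD34 (0.83, adjusted p = 0.0314), and the row that holds ASNS, asparagine synthetase (0.62, adjusted p = 0.0340). Of the 12 fold changes 8 were above 0 and 4 below 0, and SESN2 stands also in the list of other p53 targets. Which of the programmes the differences of GDF15 and TNFRSF10B belong to was not tested. All of these lists were set up with earlier results of these data known. In the fits that leave out a single library, each list gene that passed with all 6 libraries passed in 1 of 6, except SESN1 and PPP1R15A, which passed in 0.

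**Figure D4:**
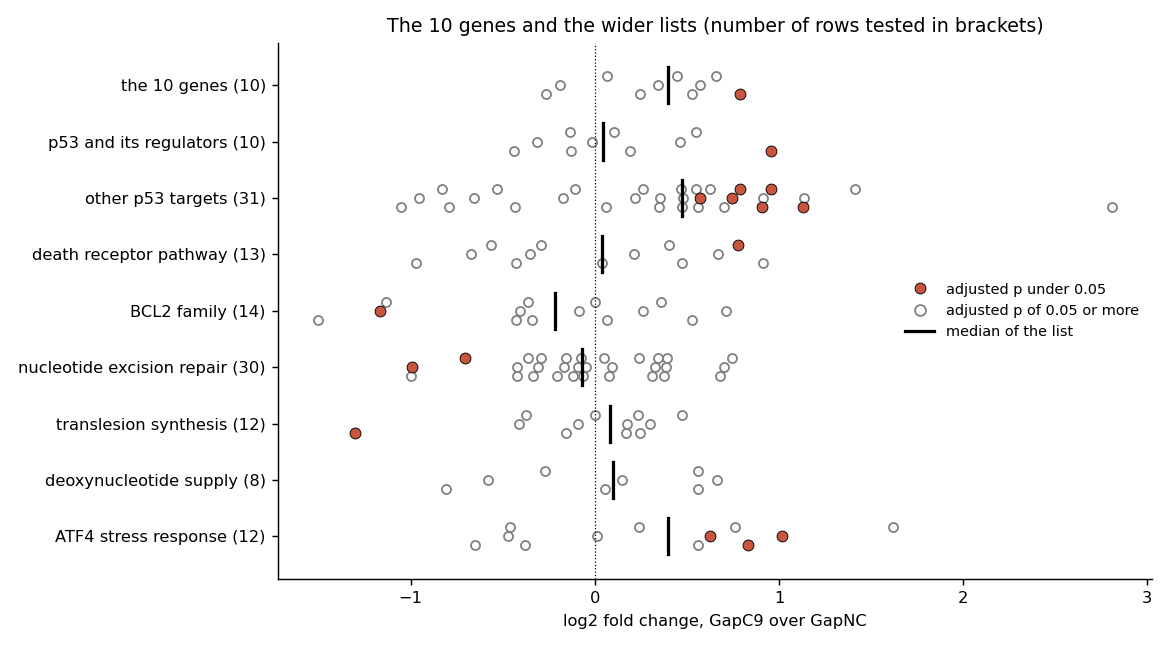
Log2 fold change, GapC9 over GapNC (x axis), of the 10 genes and of each row tested in 8 wider lists (y axis, number of rows in brackets); filled points passed a limma adjusted p of 0.05, open points did not, and vertical bars are medians. The medians are 0.40 for the 10 genes and 0.47 for the other p53 targets, and -0.22 for the BCL2 family and -0.069 for nucleotide excision repair, of which the last pair turned to 0.024 and 0.0068 with the GC correction.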

How the data were processed

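Gene expression was measured by RNA-seq of poly(A) RNA in 6 libraries, 3 GapNC and 3 GapC9. The authors deposited 1 table of FPKM values per gene for all libraries, and its 6 value columns were all used. Per the submitters' processing notes, HISAT2 2.0, StringTie 1.3.0 and Bowtie 0.12.2 were used, with no role given, and a mouse build (mm8) is listed although the cells and the gene identifiers are human. Gene counts and strand use are not given in the sources used here. The methods name edgeR, a test for counts, which the FPKM values are not, so limma 3.58.1 (R 4.3.3, empirical Bayes with a mean-variance trend) was fitted to log2(FPKM + 0.1) over the 16028 rows with a mean of at least 0.1, with group as the only term and Benjamini-Hochberg adjustment over all of them. Fold changes are on that scale, which understates changes of low genes. Coordinates were taken by gene identifier from GENCODE v29 (GRCh38), as were GC content and length of the longest listed transcript (99.3% of the tested rows), and start sites from RefSeq (GRCh38.p14), which had an entry for 8 of the 10 genes. On simulated data for 15552 rows, 99 of 100 genes changed by 1 log2 unit were recovered and 17 unchanged genes were called. The simulated noise was independent between libraries, its SD followed the mean level alone, and it held no shift by GC content. The recovery therefore does not carry over to genes with a wider spread than that, such as BBC3 with a standard error of 0.34.

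The 10 genes and all lists were chosen with earlier results of these data known. The genes named are the 10, every listed gene with an adjusted p under 0.05, and MDM2, CDKN1A, BAK1, TNFRSF10A, FADD, CASP8, DDB1, RAD23B, RRM1, RRM2 and CASC9; 1 further gene that the rule names is not reported here. TIGAR, FASLG, TNFSF10 and the marker genes are named beside it, TIGAR after its value was seen. The alternatives were other pseudocounts and filters, scaling by the median or by quantiles, a fit with no trend, a fit with robust variances, the replicate number as a block, a correction of each library for GC content (lowess, span 0.3) and leaving out each library. The same alternatives for the lists were chosen after seeing the data. Fragment numbers are estimates from FPKM, transcript length and the size of the commonest step, and precision rests on the 3 libraries of a group.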

Additional observations from a re-analysis of the deposited data

How the results depend on the processing

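Of the 17 alternatives, which include leaving out each of the 6 libraries, all kept the direction of 9 of the 10 genes, and AEN reversed to -0.14 without GapNC replicate 2 and to -0.022 without GapC9 replicate 1 (-0.14 to 0.20 over the omissions). The number of the 10 genes past the threshold upward, 1 in the analysis reported, was 0 with no filter, 0 without the trend, 0 with a replicate block (4 had an unadjusted p under 0.05 there, 28.5% of all rows), 2 with median scaling, 2 with quantile normalization, 4 with the GC correction, and 0 to 1 when a library was left out. An unadjusted p under 0.05 was reached by 7 of the 10 with the GC correction (30.4% of all rows) and 6 without GapNC replicate 1 (25.1%). It was reached by 5 with median scaling (26% of all rows) and 5 with quantile normalization (25.7%). Without GapNC replicate 2 or 3 or GapC9 replicate 1 or 3 it was 2 (19.8% to 24.5% of all rows). DDB2 was gained by median scaling, quantile normalization, the GC correction and the omission of GapNC replicate 1, TNFRSF10B and XPC by the GC correction, and the GDF15 row was lost with no filter, without the trend, with the block (adjusted p = 0.0928) and without each library. Groups not overlapping downward numbered 1 after the GC correction (RRM2B) and 0 to 1 when a library was left out. Other p53 targets past the threshold upward numbered 0 with the replicate block, 11 with the GC correction and 0 to 5 without a library, and 1 passed downward with the GC correction. Over all rows, 303 upward and 817 downward became 146 and 346 with no filter, 0 and 0 with the replicate block, 1089 and 1228 with the GC correction, and 16 to 241 and 17 to 573 without a library, and downward calls were 511 with median scaling and 516 with quantile normalization. The other alternatives changed none of these counts by over 1.5 times. The replicate numbers are given by the labels, and libraries of the same number had weak positive correlations of their deviations (0.097, 0.040 and 0.024). Other pairs ran from -0.093 to 0.058 and were below 0 but for GapNC replicate 3 with GapC9 replicate 2 (0.058). Whether a number marks libraries handled together is not given in the sources used here. The numbers were therefore left out of the main fit, and the block is given as an alternative. With 3 libraries a group, intervals such as that of BBC3 (-0.38 to 1.28) include 0 as well as large changes, and FAS and BBC3 rest on the fewest fragments.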
